A study of Mus musculus with 6 samples.

Results

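The mature strands described here come from the miR-193 and miR-365 clusters of the mouse, chosen by name: every line of the count table whose miRNA is called mmu-miR-193a, mmu-miR-193b or mmu-miR-365, with or without an arm or locus suffix. These names gave 3 mature strands on 4 of the 792 lines, out of 535 mature miRNAs in all: miR-193b-3p, miR-365-3p and miR-365-2-5p. All 3 are among the 525 mature miRNAs that were tested, those with more than 10 counts over the 6 libraries together. miR-193a, miR-193b-5p and miR-365-1-5p were not analysed here.

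Small RNA was sequenced from wild-type CD1 mouse embryos at embryonic day 15.5. There were 3 libraries of nephron progenitors (MNP1, MNP2 and MNP6) and 3 of whole kidney (MWK1, MWK2 and MWK6). Each was made from the pooled kidneys of a litter. The paper states that the samples of both groups were isolated from 3 litters, so libraries of both groups can come from the same litter. Which libraries share a litter is not stated, and the main tests below treat the libraries as unpaired. Nephron progenitors are the mesenchymal cells that form the epithelium of the nephron; they were released by a limited digestion and then purified by removing, on magnetic beads, cells that carry CD140a, CD105, Epcam or Ter119, so they are an enriched population and not a pure one. The whole kidney samples are the kidneys that were left after that digestion, and they may still hold progenitors, a share that was not measured here. RNA came from a miRNeasy Micro Kit in the first group and a miRNeasy Mini Kit in the second, so kit, isolation and group cannot be told apart. The comparison asks whether the strands differ in abundance between the progenitors and the kidney around them. In such bulk samples, fewer cells of a type and less RNA per cell cannot be told apart either.

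A miRNA is cut from a hairpin precursor, and either arm of the hairpin can become the mature strand that guides the silencing complex to messenger RNAs, mainly through its seed, the bases near its 5′ end. miR-193 and miR-365 lie close together at separate places in the genome, one holding miR-193b with a copy of miR-365 and the other miR-193a with a further copy. miR-193a is reported to repress Wt1, a transcription factor of nephron progenitors and podocytes, and the miR-193b and miR-365 cluster is known for its part in brown fat and muscle lineage choice.

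Counts per library, with 1 value per mature miRNA, were 393951, 436112 and 333850 in MNP1, MNP2 and MNP6. In MWK1, MWK2 and MWK6 they were 349241, 360221 and 355848. Levels are given as CPM, counts relative to a library size adjusted by edgeR's TMM method, and a single count is worth between 2.18 CPM (MNP2) and 3.15 CPM (MWK2). The smallest amount taken as shown, 3 counts, is 7.39, 6.54 and 7.88 CPM in MNP1, MNP2 and MNP6. For MWK1, MWK2 and MWK6 it is 9.02, 9.45 and 8.76 CPM. The reads have no molecular identifiers; this floor and the counting intervals below therefore cover counting error only.

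The 3 strands were rare in both tissues. Over all 6 libraries together, miR-365-3p had 58 counts, miR-193b-3p 17 and miR-365-2-5p 13. Ranked by mean CPM among the 525 miRNAs, miR-365-3p stood at 334, miR-193b-3p at 470 and miR-365-2-5p at 512. The lowest sum of any line in the deposited table is 10, so levels below that are outside what it shows.

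miR-193b-3p comes from the 3′ arm of mir-193b and has the same seed as miR-193a-3p. Its counts were 1, 3 and 2 in MNP1, MNP2 and MNP6, or 2.46, 6.54 and 5.26 CPM. In MWK1, MWK2 and MWK6 its counts were 2, 4 and 5, which is 6.01, 12.6 and 14.6 CPM. Every progenitor library was at or under the 3-count floor, MWK2 and MWK6 were above it, and the groups overlapped because MWK1 lay below MNP2. The progenitor mean was 4.75 ± 2.08 CPM, against 11.1 ± 4.49 CPM for whole kidney (SD, n = 3 each; exact two-sided permutation test, p = 0.2). The pooled counts, 6 against 11, gave a scaled ratio of 0.435 with a 95% counting interval from 0.132 to 1.28. In edgeR's quasi-likelihood test over all 525 miRNAs, the log2 fold change was -1.15 (standard error 0.73, 95% interval -2.73 to 0.43, Benjamini-Hochberg adjusted p = 0.265).

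miR-365-3p is made from both mir-365-1 and mir-365-2, and its lines for those hairpins hold the same count in every library, so the share of each locus cannot be told apart. It had 5, 12 and 8 counts in MNP1, MNP2 and MNP6, which is 12.3, 26.1 and 21.0 CPM. It had 13, 14 and 6 counts in MWK1, MWK2 and MWK6, which is 39.1, 44.1 and 17.5 CPM. MWK1 and MWK2 lay above every progenitor library, while MWK6 lay below MNP2 and MNP6, so the groups overlapped. Means were 19.8 ± 6.99 CPM for progenitors and 33.6 ± 14.1 CPM for whole kidney (SD, n = 3 each; exact two-sided permutation test, p = 0.3). The pooled counts of 25 and 33 gave a scaled ratio of 0.604, with a 95% counting interval from 0.344 to 1.05. The log2 fold change from edgeR's quasi-likelihood test was -0.73 (standard error 0.45, 95% interval -1.69 to 0.24, adjusted p = 0.251).

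miR-365-2-5p comes from the opposite arm of mir-365-2 and belongs to that locus alone, the hairpin on chromosome 11, so its reads are the only ones here assigned to that cluster alone. Its counts were 0, 3 and 5 in MNP1, MNP2 and MNP6, or 0, 6.54 and 13.1 CPM. In MWK1, MWK2 and MWK6 they were 2, 0 and 3, or 6.01, 0 and 8.76 CPM. Only MNP6 was above the floor, each group had 1 library without a read, and the groups overlapped. A count of 0 allows up to 7.39 CPM in MNP1 and 9.45 CPM in MWK2. The progenitors averaged 6.56 ± 6.57 CPM and whole kidney 4.92 ± 4.48 CPM (SD, n = 3 each; exact two-sided permutation test, p = 0.8). The pooled counts of 8 and 5 gave a scaled ratio of 1.28 with a 95% counting interval from 0.368 to 4.95, and edgeR's quasi-likelihood test a log2 fold change of 0.34 (standard error 1.07, 95% interval -1.96 to 2.64, adjusted p = 0.846). The direction rests on single libraries: without MNP6 the log2 fold change was -0.51 and without MWK2 it was -0.19.

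**Figure D1:**
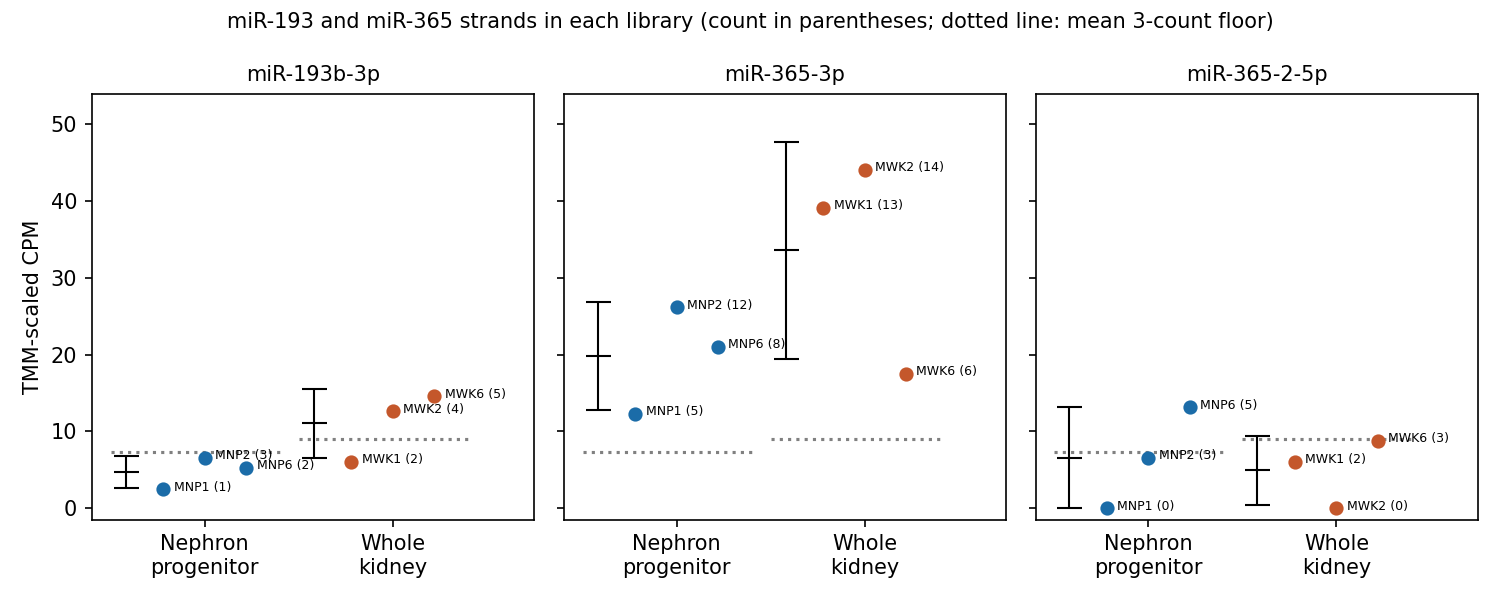
TMM-scaled CPM of the 3 strands in each of the 3 nephron progenitor libraries (blue) and 3 whole kidney libraries (orange), with the count in parentheses; the black bars beside the points are the mean and SD, the lower end held at 0, and the dotted line is the group's mean CPM for 3 counts. miR-365-3p lies above that line in every library, miR-193b-3p only in MWK2 and MWK6 and miR-365-2-5p only in MNP6.

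By edgeR's quasi-likelihood test at an adjusted p of 0.05, 0 of the 3 strands passed, beside 36.6% of all miRNAs tested (192 of 525, 102 higher and 90 lower in nephron progenitors). At an unadjusted p of 0.05 the number was also 0, beside 219 of the 525 miRNAs. In the same 6 libraries, fitted without a replicate block, DESeq2 and limma-voom each passed 0 of 3, beside 163 and 182 miRNAs. With a replicate block in the 4 libraries whose samples carry a number, 1 strand passed, beside 202 miRNAs. That strand was miR-365-3p (edgeR, adjusted p = 0.0286). Without the block, those 4 libraries gave it an adjusted p of 0.0914 in edgeR, and 0 strands passed, beside 169 miRNAs. A block by column number over all 6 libraries also passed 0 of the 3 strands, beside 210 miRNAs. Equal numbers are not shown to mark pairs. All 3 strands have a mean of under 10 counts, and among the 191 miRNAs of such low counts 15.2% passed (29, of them 14 higher and 15 lower). The smallest change on the log2 scale among those 29 was 1.54, larger than the fitted change of any of the 3 strands, and the intervals above still include differences of that size for miR-193b-3p, miR-365-3p and miR-365-2-5p. Missing the threshold does not show that the levels were alike. Without overlap between the groups were 0 of the 3 strands, beside 46.7% of all miRNAs tested (245 of 525).

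The 3-strand sum was 14.8, 39.2 and 39.4 CPM in MNP1, MNP2 and MNP6, from 6, 18 and 15 counts. In MWK1, MWK2 and MWK6 it was 51.1, 56.7 and 40.9 CPM, from 17, 18 and 14 counts. The groups did not overlap in this TMM-scaled sum, though MWK6 and MNP6 lay within the worth of 1 count of each other. Relative to library totals without TMM they did overlap: MNP6 had 15 of 333850 counts and MWK6 14 of 355848. The means were 31.1 ± 14.2 and 49.6 ± 8.02 CPM (SD, n = 3 each), or 0.00334% and 0.00461% of all CPM, and miR-365-3p made up most of the sum in both groups. MNP1, with the lowest level of each strand among the progenitor libraries, weighs heavily here: the difference between the group means of the log2 sums was -0.79 with all libraries and -0.32 without MNP1.

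Shares within a library do not depend on the scaling. The 5p strand of mir-365-2 made up 0, 20 and 38.5% of the miR-365 counts in MNP1, MNP2 and MNP6. In MWK1, MWK2 and MWK6 it was 13.3, 0 and 33.3%. Both groups ran from 0 to over 30%, with means of 19.5 ± 19.2% and 15.6 ± 16.8% (SD, n = 3 each; exact two-sided permutation test, p = 0.8, 0.8 after Benjamini-Hochberg adjustment over the 2 shares compared). The difference, 3.93 percentage points, was -5.56 without MNP6 and -3.85 without MWK2, and it was 13.7 without MNP1 and 12.8 without MWK6. Pooled, the share was 24.2% of 33 counts in nephron progenitors (exact 95% counting interval 11.1 to 42.3%). In whole kidney it was 13.2% of 38 (4.41 to 28.1%). These intervals cover counting error only and not the spread between libraries. miR-365-3p, with reads of both loci counted in it, had more counts than miR-365-2-5p in every library.

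miR-193b-3p beside miR-365-3p compares the neighbours of the cluster on chromosome 16, with the reads of the other miR-365 locus included. It was 16.7, 20 and 20% of their joint counts in MNP1, MNP2 and MNP6. In MWK1, MWK2 and MWK6 it was 13.3, 22.2 and 45.5%. The progenitor libraries lay close together, inside the range of the whole kidney libraries, of which MWK6 was the highest. The means were 18.9 ± 1.92% and 27.0 ± 16.6% (SD, n = 3 each; exact two-sided permutation test, p = 0.7, adjusted p = 0.8). This difference of -8.11 percentage points was 1.11 without MWK6, -14.9 without MWK1 and -10.5 without MWK2. Pooled, the share was 19.4% of 31 counts in nephron progenitors (exact 95% counting interval 7.45 to 37.5%). In whole kidney it was 25% of 44 (13.2 to 40.3%). These intervals too leave out the spread between libraries. For 3 libraries against 3, the smallest p that such a permutation test can give is 0.1.

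RefSeq holds 7 mature strands under these names (GRCm38.p6), and each of the 3 counted strands is among them. The counted strands are shown first, followed by the partners that share a seed with them and were not analysed here; capitals mark the seed, bases 2 to 8, and each is written 5′ to 3′.
miR-193b-3p: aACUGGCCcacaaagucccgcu
miR-365-3p: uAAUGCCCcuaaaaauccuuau
miR-365-2-5p: aGGGACUUucaggggcagcugug
miR-193a-3p: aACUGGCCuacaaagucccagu
miR-365-1-5p: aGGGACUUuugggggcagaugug
miR-193b-3p and miR-193a-3p share the seed ACUGGCC and no other mature strand in RefSeq has it. From miR-193a-3p to miR-193b-3p, the 22 bases differ at 3 positions counted from the 5′ end, U9C, A20G and G21C, all outside the seed. miR-365-2-5p and miR-365-1-5p likewise share GGGACUU with no other strand, and from the second to the first their 23 bases differ by U10C, G11A and A19C. No other strand in RefSeq has the seed AAUGCCC of miR-365-3p. The strands of the clusters thus carry 3 different seeds in these counts, each held by 1 counted strand.

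The hairpins of the 3 precursors with counts show where those strands lie; capitals mark the counted mature strands, and all are on the plus strand (RefSeq, GRCm38.p6).
mir-193b: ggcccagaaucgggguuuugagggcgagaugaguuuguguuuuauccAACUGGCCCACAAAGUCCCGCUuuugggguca
mir-365-1: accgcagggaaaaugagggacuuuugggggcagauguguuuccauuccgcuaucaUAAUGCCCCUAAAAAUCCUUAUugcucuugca
mir-365-2: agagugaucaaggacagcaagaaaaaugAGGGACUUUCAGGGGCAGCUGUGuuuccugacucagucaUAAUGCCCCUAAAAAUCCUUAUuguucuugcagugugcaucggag
The 3p strand is the same run of 22 bases in mir-365-1 and mir-365-2, while the loops and the 5p arms differ, which is why the 5p strand alone can be placed at a locus. The coordinates of these 3 precursors in the count table, on mm10, equal those of RefSeq.

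On chromosome 16, mir-193b (chr16:13449523-13449601) and mir-365-1 (chr16:13453840-13453926) are separated by 4238 bases. GENCODE places both in an intron of Gm15738, an antisense transcript on the minus strand, so they run against it, and Mrtfb, a coactivator of serum response factor, ends upstream at 13417529 on the plus strand. On chromosome 11, mir-193a (chr11:79711969-79712034) and mir-365-2 (chr11:79726400-79726511) are separated by 14365 bases and lie in no other annotated gene. The nearest is the long noncoding RNA Gm11205 on the same strand, 6549 bases before mir-193a, and Rab11fip4, a Rab11 effector, ends upstream at 79698023. No precursor in the count table lies within 50 kb of these loci other than those of the clusters. The hairpin on chromosome 11 gave reads of its 5p strand in 4 of the 6 libraries, MNP2, MNP6, MWK1 and MWK6, and the cluster on chromosome 16 gave miR-193b-3p reads in all 6.

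**Figure D2:**
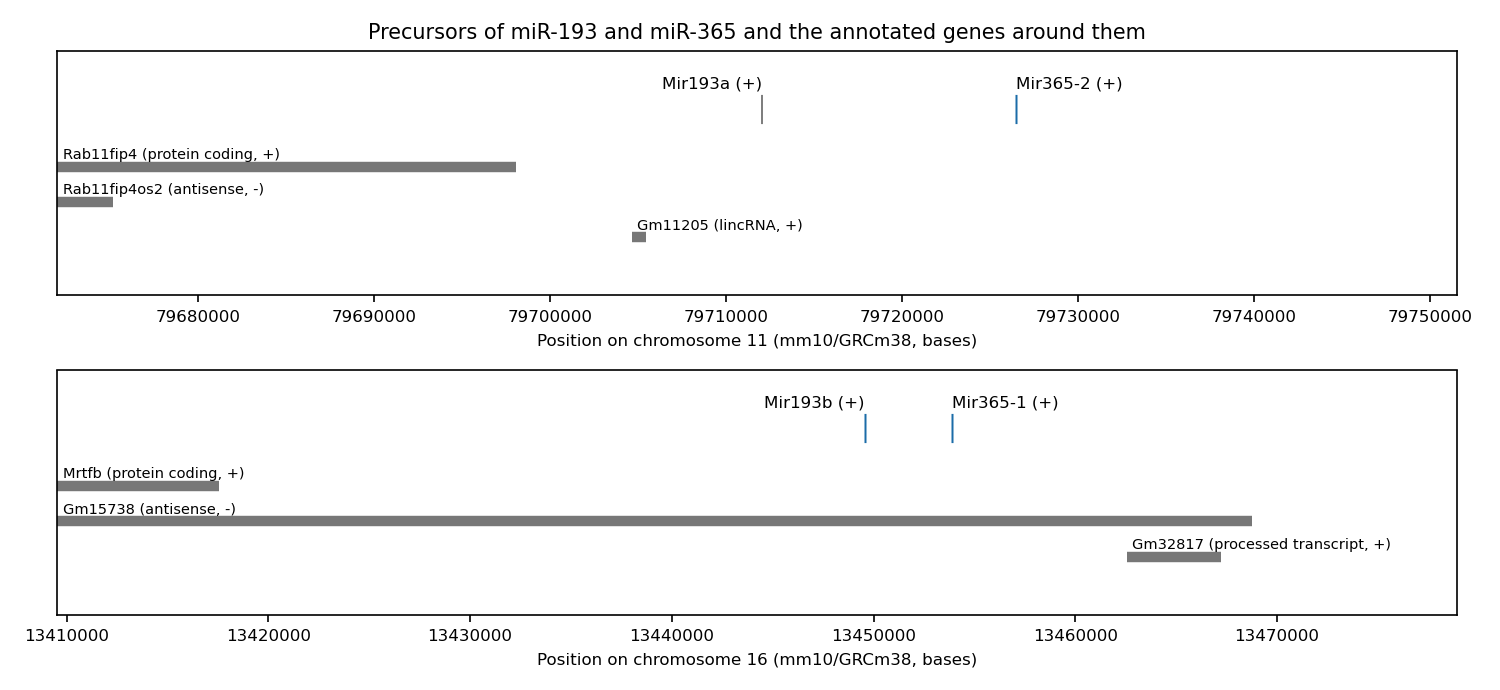
Positions, to scale in bases on mm10, of the 4 precursors (ticks; blue where the count table has a line for it, black for mir-193a) and of the genes GENCODE annotates around them (grey bars, with strand; bars that reach the left edge go on beyond it). The pair on chromosome 16 lies 4238 bases apart inside Gm15738 and the pair on chromosome 11 lies 14365 bases apart in no other gene.

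The lists of miRNAs of other cell types show how far the progenitor libraries differ from the kidney around them. Beside these lists, 17.1% of all 525 miRNAs tested fell at the edgeR threshold. Of the miR-200 family and its relatives, known from epithelium, 7 of 7 strands fell in nephron progenitors (edgeR, median log2 fold change -6.62; -0.01 over all 525), with 2 of them, miR-141-3p and miR-200b-5p, at 0 in every progenitor library. Their sum was 227, 386 and 89.3 CPM in MNP1, MNP2 and MNP6, against 23975, 25414 and 21834 CPM for MWK1, MWK2 and MWK6, with miR-200a-3p the most abundant. For miR-126a of endothelium 2 of 2 strands fell, with a median of -5.18. The sum was 419, 595 and 578 CPM against 20132, 21311 and 18150 CPM in the same order, and miR-126a-3p was its largest part. For erythroid miRNAs 5 of 7 strands fell (median -1.31), but miR-486a and miR-486b hold the same counts, and with each count taken once it was 4 of 5. Their sums, so taken, were 391, 283 and 176 CPM against 1495, 1486 and 762 CPM, with miR-486a-5p the most abundant in progenitors and miR-451a in whole kidney. For smooth muscle and pericytes 2 of 4 fell (median -0.81), from sums of 21799, 28640 and 26087 CPM against 61206, 72036 and 57807 CPM, mostly miR-143-3p. miR-193b-3p and miR-365-3p had fitted values of -1.15 and -0.73, on the same side as these lists, and miR-365-2-5p 0.34, on the other. None of these strands passed, the 95% interval of each included 0, and the median over all 525 miRNAs was -0.01. The part of these cell types in the levels of the strands was not tested.

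In the lists of stroma, leukocytes and skeletal muscle no strand fell; beside them, 19.4% of the 525 miRNAs rose and 17.1% fell. For stroma and mesenchyme 1 of 6 strands rose (median 0.25; 3 of 6 under library totals in place of TMM). miR-199a-3p and miR-199b-3p hold the same counts and were the most abundant; with these taken once, the sums were 15523, 20902 and 24242 CPM against 15117, 16141 and 15584 CPM. For leukocytes 1 of 6 rose (median 0.30), with sums of 150, 159 and 84.1 CPM against 111, 117 and 73.0 CPM, miR-142a-3p being the most abundant in progenitors and miR-142a-5p in whole kidney. These shares, 16.7% in both lists, are near that of all miRNAs. For skeletal muscle, a tissue in whose lineage the miR-193b cluster has been studied, 1 of 3 rose (median 1.06). The sums there were 300, 438 and 131 CPM against 66.2, 113 and 61.3 CPM, and miR-206-3p was the strand that rose, from 6.22 ± 8.38 CPM in whole kidney to 178 ± 108 CPM in nephron progenitors (SD, n = 3 each).

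Beside miR-193a, a list of other miRNAs described in podocytes or glomerular disease was counted. Of its 24 strands 2 rose, 9 fell and 13 did not pass. The median on the log2 scale was -0.22, and under library totals 3 rose and 8 fell with a median of -0.02. Those that rose were miR-29a-3p (1.83) and miR-26a-2-3p (1.01). The 11 strands that rose or fell are 45.8% of the list, beside 36.6% of all miRNAs. By direction, 8.33% of the list rose, beside 19.4% of all miRNAs, and 37.5% fell, beside 17.1%. The most abundant in whole kidney, miR-30a-5p, fell from 53102 ± 7870 CPM in whole kidney to 10206 ± 852 CPM in nephron progenitors (SD, n = 3 each), and miR-192-5p fell from 2057 ± 397 to 476 ± 35.8 CPM. In progenitors the most abundant was miR-26a-5p, at 17806 ± 1628 CPM. These 3 stood far above the miR-193 and miR-365 strands, which had a few counts a library. No strand of the clusters reached a mean of 50 counts, the least at which miRNAs of like pattern were to be named, so none are named.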

How the data were processed

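According to the study's methods and processing notes, the authors aligned trimmed reads to mm10 with Bowtie2 2.2.3, counted known miRNAs with miRDeep2 and deposited expected counts without normalization, 1 line for each mature miRNA and precursor. Of 792 lines, 3 hold fractions, which were rounded; the design had assumed whole counts. The highest count over the lines of a mature name was kept in each library. Names with more than 10 counts over the 6 libraries were tested with edgeR 4.0.16 (TMM, quasi-likelihood, Benjamini-Hochberg at 0.05) in R 4.3.3; standard errors come from dividing each log2 fold change by the root of its F. Alternatives were DESeq2 1.42.0, limma 3.58.1 (voom), other scalings, filters and line handling, a replicate block and each library left out; scalings of the lists and a block by column number were added after seeing the data. Columns MNP6 and MWK6 match no single sample name and entered by group. The steps were tested on simulated data. Counting intervals are exact at 95%. Figures used matplotlib 3.10.9.

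The strands and lists were chosen with earlier results of these data known. Named are the strands of the clusters, list members, miRNAs of like pattern (mean of at least 50 counts) and precursors within 50 kb. The share of miR-193b-3p beside miR-365-3p, the subset under 10 counts, the pooled ratios and the list members given by name were chosen after values were seen. Planned shares that need miR-193a or miR-365-1-5p were not computed.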

Additional observations from a re-analysis of the deposited data

How the results depend on the processing

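Over 17 alternatives, miR-193b-3p kept its direction and stayed short of the threshold (log2 fold change -1.44 to -0.86, adjusted p 0.170 to 0.616). miR-365-3p kept its direction in all 17 (-1.12 to -0.48, adjusted p 0.0286 to 0.577). With a replicate block, fitted to the 4 libraries whose samples carry a number, it was -1.12 (edgeR, adjusted p = 0.0286). There 1 strand of the clusters passed, beside 202 miRNAs in all. In the same 4 without the block miR-365-3p was at -1.11 (adjusted p = 0.0914), and 0 strands passed, beside 169 miRNAs. The cause was not tested. A block by the number in the column name, over all 6 libraries, was added after seeing the data. It gave miR-365-3p -0.75 (adjusted p = 0.155), and 0 of 3 strands passed, beside 210 miRNAs. Samples came from 3 litters, and neither labels nor methods say that equal numbers mark a litter. Deviations from the group means correlated at 0.142, 0.041 and 0.223 for the numbers 1, 2 and 6, and every library but MWK2 correlated best with its own number, a hint from the data only. miR-193b-3p was lower in progenitors for 3 of 3 numbers and miR-365-3p for 2 of 3. miR-365-2-5p turned when MNP6 or MWK2 was left out (-0.51 to 0.99 over the libraries left out in turn), with an adjusted p of 0.528 to 0.988 over all 17 alternatives. Over 10 counts in each library left none of the 3 strands, and 120 miRNAs of the fewer tested passed. Library totals moved the median of all miRNAs from -0.01 to 0.19, with miR-193b-3p at -0.96 and miR-365-3p at -0.52. A single count moves a strand by 2.18 to 3.15 CPM.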
